A study of Mus musculus with 2 samples.

Results

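The ADAR family of RNA-editing enzymes, encoded in the mouse by Adar, Adarb1 and Adarb2, was described in total RNA from the hippocampus. The 3 genes were taken by symbol from the transcript identifiers and joined to the gene quantification by gene identifier. They are 3 of 55536 genes and hold 28 of 141864 transcripts. The rule itself uses no measured value, although the genes were proposed with earlier results of these data known. Total RNA was sequenced from tissue labelled as a layer of the hippocampus, taken from male B6CASTF1/J mice aged 2 months. B6CASTF1/J is the first-generation cross of C57BL/6J and CAST/EiJ, so both libraries carry one haplotype of each strain. The 2 libraries, biological replicates 1 and 2, form 1 group with no treatment, mutation or comparison group, so no test was made. That the libraries came from separate animals rests on the replicate numbers, and the SD given below covers only the spread between these libraries.

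ADAR enzymes bind double-stranded RNA and remove an amino group from adenosine, which leaves inosine, a base that the ribosome and reverse transcriptase read as guanosine. Adar encodes ADAR1, made as a short nuclear protein, p110, and as a longer interferon-inducible protein, p150, which marks the cell's own double-stranded RNA so that the cytoplasmic sensor MDA5 does not respond to it. Adarb1 encodes ADAR2, which recodes the glutamine codon of the AMPA receptor subunit Gria2 to arginine in neurons and also edits its own precursor RNA. Adarb2 encodes ADAR3, a brain protein that binds double-stranded RNA, for which no editing activity is known, and whose RNA is widely used as a marker of interneurons born in the caudal ganglionic eminence. The inosine content of RNA was not analysed here, and every value below is a level of RNA.

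The total expected count, the estimated number of reads assigned, was 31422827 in replicate 1 and 31303010 in replicate 2, of which spike-in RNA took 0.491% and 0.511%. All levels are in TPM, the abundance of a transcript or gene relative to all others, a unit that corrects for transcript length. The first quantification came from an alignment to the transcriptome and the second directly from the reads. The tissue label was set beside marker genes: all 5 excitatory neuron, all 5 dentate granule cell and all 5 CA pyramidal cell markers were detected, which here means 1 TPM or more in each library. Their medians were 585, 40.5 and 43.6 TPM. All 5 neocortex and all 5 thalamus markers were also detected, with medians of 13.4 and 12.9 TPM. The share detected over all protein-coding genes was 57.7%. Of 5 choroid plexus markers 2 were detected, and Ttr, the thyroxine carrier made by that epithelium, read 10.6 TPM in replicate 1 and 23.1 in replicate 2. In bulk tissue, fewer cells of a type and less RNA per cell cannot be told apart.

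All 3 ADAR genes were detected in both libraries, as were 57.7% of 22015 protein-coding genes. Adar (ENSMUSG00000027951.16, mm10 chr3:89715022-89753446, plus strand, 9 transcripts) read 54.0 TPM in replicate 1 and 46.0 in replicate 2, a mean of 49.98 ± 5.64 (SD, n = 2). Its credibility interval, deposited with each value, ran from 49.6 to 56.6 TPM in replicate 1 and from 42.3 to 48.5 in replicate 2. These intervals do not overlap. Adarb1 (ENSMUSG00000020262.15, chr10:77290726-77418270, minus strand, 13 transcripts) read 44.7 and 41.7 TPM, a mean of 43.2 ± 2.14 (SD, n = 2), with intervals of 42.3 to 46.0 and 39.5 to 43.2. Adarb2 (ENSMUSG00000052551.16, chr13:8202866-8768747, plus strand, 6 transcripts) read 16.2 and 16.0 TPM, a mean of 16.1 ± 0.113 (SD, n = 2), with intervals of 15.2 to 17.3 and 15.0 to 17.0. For Adarb1 and Adarb2 the intervals of the libraries overlap. The expected counts behind these values were 4884 and 4471 for Adar, 5539 and 5343 for Adarb1, and 1727 and 1724 for Adarb2. Among the 12697 detected protein-coding genes, whose median was 14.7 TPM, Adar stood at percentile 84.7 by mean TPM, Adarb1 at 82.0 and Adarb2 at 53.1.

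**Figure D1:**
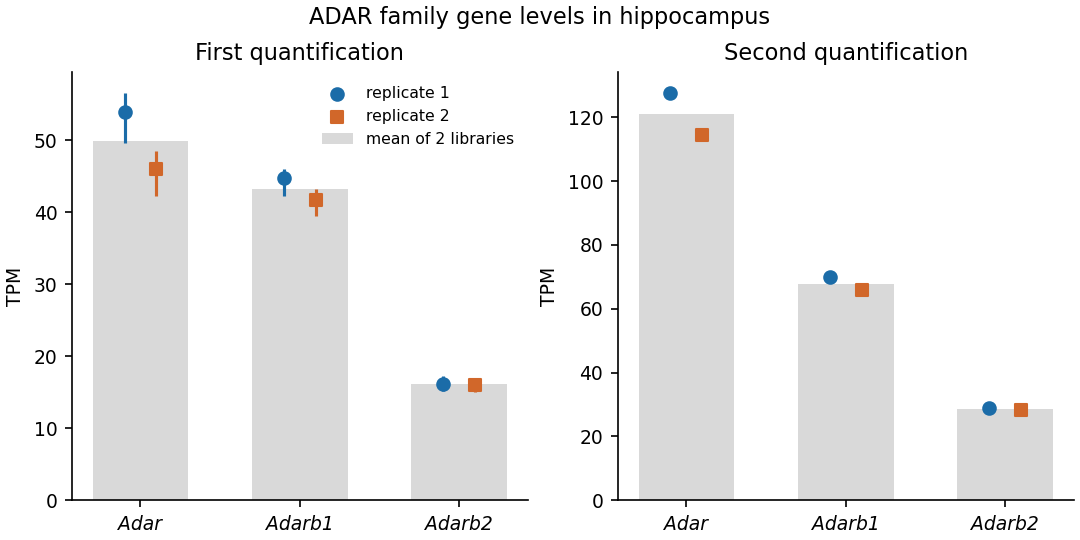
TPM (linear axis from 0) of Adar, Adarb1 and Adarb2 in the first quantification (left) and the second (right). Circles are replicate 1, squares are replicate 2, grey bars are the mean of the 2 libraries, and the vertical lines on the left are the deposited credibility intervals. Adar is highest and Adarb2 lowest in both panels, and the gap between Adar and Adarb1 is wider on the right. There Adar includes 51.9 and 47.6 TPM of its processed transcript Adar-206.

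By TPM, Adar lay above Adarb1 and Adarb1 above Adarb2 in both libraries. The lower library of Adar, at 46.0 TPM, lay just above the higher library of Adarb1, at 44.7. The ratio of Adar to Adarb1 was 1.21 in replicate 1 and 1.10 in replicate 2. The same order held in the second quantification, with Adar at 128 and 114 TPM, Adarb1 at 69.8 and 65.7, and Adarb2 at 28.9 and 28.2. There the ratio of Adar to Adarb1 was 1.83 and 1.74. Of that Adar level, 51.9 and 47.6 TPM lay in Adar-206, a short processed transcript described below. Over protein-coding transcripts alone, a calculation added after the values were seen, the ratio there was 1.93 and 1.74. By expected count, which does not correct for length, the order of this pair turned, and Adar held 0.86 times the reads of Adarb1. The step from Adarb1 down to Adarb2 was larger, with a ratio of mean TPM of 2.68, of 2.38 in the second quantification, and of 3.15 by expected count. No library of Adarb1 overlapped one of Adarb2 on any of these scales.

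Of the summed TPM of the family, Adar made up 46.97% in replicate 1 and 44.3% in replicate 2, Adarb1 38.9% and 40.2%, and Adarb2 14.1% and 15.5%. The means were 45.7% ± 1.86, 39.6% ± 0.899 and 14.8% ± 0.964 (SD, n = 2). In the second quantification Adar took 55.7% ± 1.07, Adarb1 31.2% ± 0.511 and Adarb2 13.1% ± 0.563 (SD, n = 2). That Adar share counts the 51.9 and 47.6 TPM of Adar-206. Thus the genes of the catalytically active enzymes, Adar and Adarb1, held most of the family's TPM in both quantifications, and Adarb2 held the smallest share. These shares count transcripts of every type, also those without a full reading frame.

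Between the libraries, none of the 3 genes was 2-fold apart, as were 0.273% of the 13916 genes that had 50 or more expected counts in each. On the log2 scale the TPM of replicate 2 over that of replicate 1 was -0.23 for Adar, -0.10 for Adarb1 and -0.01 for Adarb2. Counting error alone, computed from the expected counts, gave standard errors of 0.030, 0.028 and 0.049. Over all 13916 genes the ratio had a median of -0.04 and an SD of 0.20, and the ADAR genes stood at its percentiles 13.4, 34.4 and 58.8. Each member was within 1 SD of the median of all genes, an SD that includes genes with as few as 50 counts. Adar still lay further from that median than its own counting error of 0.030. Ratios of counts after TMM scaling, which centres the typical gene, were -0.12, -0.04 and 0.01. Counts are not corrected for transcript length, so these differ from the TPM ratios in more than the scaling.

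**Figure D2:**
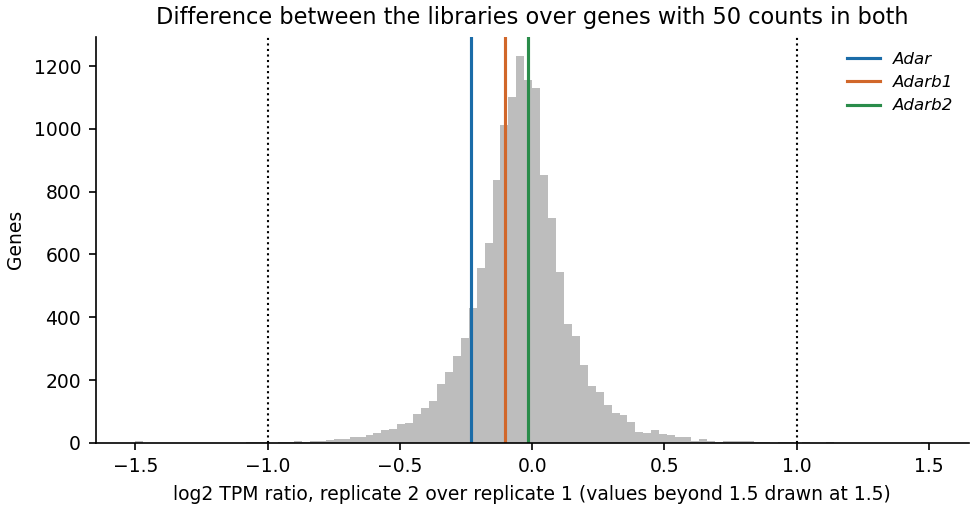
Histogram of the log2 TPM ratio of replicate 2 over replicate 1 for the 13916 genes that had 50 or more expected counts in each library (vertical axis: number of genes). Coloured lines mark Adar at -0.23, Adarb1 at -0.10 and Adarb2 at -0.01, and dotted lines mark a 2-fold difference, which none of the 3 reaches.

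The quantifications differed in scale: the second read a median of 1.69 times the first over detected protein-coding genes. Adarb1 and Adarb2, at 1.57 and 1.77 times, stood at percentiles 26.3 and 61.7 of that distribution. Adar, at 2.42 times, stood at percentile 94.1. Of its transcripts, Adar-206 had a mean of 8.06 TPM in the first quantification and 49.7 in the second. Adar-202 had 33.2 and 44.9.

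Adar has 5 protein-coding transcripts, 3 with a retained intron and 1 processed transcript with no reading frame. The short ADAR1 form, Adar-202 (ENSMUST00000098924.8), whose annotated frame has 930 residues, read 35.2 TPM in replicate 1 and 31.3 in replicate 2. Both values lie above the credibility intervals of this transcript, 32.3 to 34.8 and 28.6 to 31.0 TPM. The second quantification gave 46.2 and 43.6 TPM. It held 65.1% and 67.9% of the gene's TPM in the first quantification and 36.2% and 38.2% in the second. The largest gap between the quantifications was in Adar-206, a processed transcript of 2 exons and 519 bases at the 5′ end of the gene. It read 8.98 and 7.14 TPM in the first quantification and 51.9 and 47.6 in the second, on only 84.8 and 69.3 expected counts in the first and 159 and 149 in the second. A share of 40.6% and 41.6% of Adar TPM in the second quantification thus rests on few reads over a short transcript. By expected count, protein-coding transcripts held 94.9% of Adar reads in the first quantification. Of the retained-intron transcripts, Adar-208 read 5.14 and 3.21 TPM and Adar-209 read 2.86 and 2.19. The other 5 transcripts were each under 5% of the gene in every measurement. One of these, Adar-207, which retains an intron, read 1.57 and 1.37 TPM.

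The long ADAR1 reading frame, which belongs to the interferon-inducible protein, is annotated on Adar-201 with 1152 residues and Adar-203 with 1178 residues. Both start at a first exon at chr3:89730748-89730838, which lies downstream of the first exon of the short form at chr3:89715022-89715150. Adar-201 read 0.27 TPM in replicate 1 and 0.84 in replicate 2, with credibility intervals of 0.00 to 1.11 and 0.032 to 1.60. Adar-203 was listed at 0 TPM in both, with intervals that reached 1.02 and 1.12 TPM. By the second quantification Adar-201 read 4.43 and 3.48 TPM and Adar-203 read 1.59 and 0.99. Adar-204 and Adar-205 also start there, with frames of 660 and 634 residues, and both were listed at 0 TPM in the first quantification. Adar-204 read 4.23 and 3.49 TPM in the second and Adar-205 again 0. Together the long forms made up 0.762% and 2.62% of the transcripts that encode the long or the 930-residue frame, a mean of 1.69% ± 1.31 (SD, n = 2). The second quantification gave 11.5% and 9.29%, a mean of 10.4% ± 1.58 (SD, n = 2). The short form exceeded the long forms in every library of both quantifications, while the share of the long forms differed by 6.16 times between the quantifications.

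Promoter windows of RefSeq, build GRCm38.p6, the assembly that mm10 names, cover the bases just before and after an annotated start and give 3 windows for Adar, 1 for Adarb1 and 1 for Adarb2. They were searched on both strands for GAAANNGAA, a core of the interferon-stimulated response element bound by interferon regulatory factors. The motif was chosen after the sequence had been read. It occurs 2 times in the window of the downstream Adar start, on the plus strand, and in none of the other 4 windows. Of all 32851 windows 8.56% hold it. The occurrence that lies inside the annotated downstream first exon is shown because that exon begins the transcripts with the long reading frame. The printed bases are chr3:89730740-89730767, plus strand, with the motif in capitals.
Adar downstream start: ttcaaggaaacGAAAGTGAActctgggg
A match describes these letters and was not linked to any binding measurement.

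A second difference among Adar coding transcripts is a stretch of 78 bases, 26 codons, at chr3:89745524-89745601, plus strand, at the 3′ end of a coding exon. The exon has 226 bases with the stretch and 148 without it. The spliced sequences are shown from the GENCODE M21 transcripts, with the stretch in capitals and 25 bases on each side, since this is one of the differences between the short form Adar-202 and Adar-201, which also differ in first exon and start codon.
Adar-202: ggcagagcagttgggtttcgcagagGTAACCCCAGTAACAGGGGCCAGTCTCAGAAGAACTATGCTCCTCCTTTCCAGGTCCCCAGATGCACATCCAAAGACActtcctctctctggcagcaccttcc
Adar-201: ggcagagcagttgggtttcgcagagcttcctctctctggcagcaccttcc
The stretch opens with the letters GT, which stand directly after the exon in the shorter version. Transcripts with it made up 99.2% and 97.4% of coding Adar TPM, and 92.2% and 93.3% in the second quantification. The form with the 26 codons was thus the main one in every measurement. In the first quantification only Adar-202 and Adar-201 read above 0 among the coding transcripts. There this split is the same as that of the long and short frames above and is not a separate result.

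Adarb1 has 3 protein-coding transcripts, 3 annotated as targets of nonsense-mediated decay, the pathway that removes RNA with an early stop codon, and 7 with a retained intron. Its transcripts differ by 2 short stretches. The first is a 47-base extension at the 5′ end of a long coding exon downstream of the start codon, at chr10:77322584-77322630, minus strand. It lengthens that exon from 935 to 982 bases, and because 47 bases are not whole codons it changes the reading frame. In mammals this extended exon is known to be made by splicing to an acceptor that ADAR2 creates by editing an adenosine of its own intron. The sequences at this junction are shown, with the extension in capitals, because it is the known product of this self-editing, although no editing was measured here.
Adarb1-203: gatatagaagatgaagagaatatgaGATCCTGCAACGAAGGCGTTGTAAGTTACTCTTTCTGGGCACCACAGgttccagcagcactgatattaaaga
Adarb1-201: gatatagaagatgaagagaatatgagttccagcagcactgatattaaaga
The extension ends with the letters AG, which in the shorter version stand directly before the exon. In Adarb1-203 and Adarb1-206, which carry it, the annotated frame ends after 82 residues, and the stop codon lies 761 bases before the next exon junction with 7 exons still to follow. The 3 protein-coding transcripts, which lack it, have frames of 701 or 711 residues.

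Adarb1 RNA with the extension and without it was of similar level. Of the 8 transcripts that cover the junction, the 3 with the extension summed to 19.9 TPM in replicate 1 and 20.1 in replicate 2. The 5 without it summed to 17.0 and 14.3 TPM. The share with the extension was 53.8% and 58.5%, a mean of 56.1% ± 3.27 (SD, n = 2). Their sums in the second quantification were 26.8 and 24.4 TPM with the extension and 30.7 and 31.1 without it, a share of 46.6% and 44.0%, mean 45.3% ± 1.87 (SD, n = 2). The quantifications therefore place the extended form on opposite sides of 50%, and both place it between 44.0% and 58.5% in every library. By expected count the mean share was 57.4%.

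The second stretch is 30 bases, 10 codons, at the 3′ end of a later coding exon, at chr10:77312348-77312377, minus strand. It lengthens that exon from 149 to 179 bases, keeps the reading frame, and is known as a cassette within the deaminase domain of ADAR2. Its spliced sequence is shown in capitals, because it separates the longer ADAR2 protein of 711 residues from that of 701.
Adarb1-202: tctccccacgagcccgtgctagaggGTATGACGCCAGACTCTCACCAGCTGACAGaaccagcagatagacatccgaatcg
Adarb1-201: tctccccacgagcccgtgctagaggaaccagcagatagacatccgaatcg
Of the 6 transcripts that cover this exon, the 3 with the cassette held 59.0% and 63.6% of the TPM, a mean of 61.3% ± 3.26 (SD, n = 2). The second quantification gave 69.6% and 73.3%, a mean of 71.4% ± 2.63 (SD, n = 2). The longer version was the larger share in every measurement. These shares count decay targets that encode neither protein, Adarb1-206 with the cassette and Adarb1-203 and Adarb1-205 without it. They are therefore not shares of the 711- and 701-residue forms. Of the coding transcripts, Adarb1-202 and Adarb1-204 carry the cassette and Adarb1-201 does not, and their levels are given below.

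The stretches were also read in combination. Without extension and with cassette, the form that encodes the 711-residue protein, the share was 44.7% and 32.5% in the first quantification and 43.0% and 44.0% in the second. The form with the extension and no cassette held 40.8% and 30.2%, against 19.6% and 12.01% in the second. The form with both held 14.4% in replicate 1 and 31.1% in replicate 2, and 26.5% and 29.3% in the second. The form with neither, which sums the coding Adarb1-201 and the decay target Adarb1-205, held 0.202% and 6.21%, against 10.8% and 14.7%. In replicate 2 of the first quantification all of it was Adarb1-205, at 2.04 TPM, with Adarb1-201 at 0. The stretches lie on different exons. How reads common to several transcripts were divided was not tested.

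Single Adarb1 transcripts also differed between the quantifications. Adarb1-202 read 15.5 and 10.7 TPM in the first quantification and 0.002 and 0.001 in the second. Adarb1-204 encodes a frame of the same 711 residues and differs by an additional exon, 12 against 11. It was listed at 0 TPM in both libraries of the first quantification and read 23.4 and 23.3 in the second. The quantifications thus gave the RNA of this frame to different transcripts. Adarb1-206, which has both stretches, was over 2-fold apart between the libraries, with 4.99 TPM in replicate 1 and 10.2 in replicate 2 on 732 and 1540 expected counts, while its credibility intervals of 2.81 to 14.6 and 7.62 to 17.1 TPM overlap. It was 1 of 12 ADAR transcripts with at least 50 expected counts in both, and among all 27278 such transcripts 2.89% were 2-fold apart. The second quantification gave it 14.4 and 15.5 TPM. Adarb1-203, with the extension alone, read 14.2 and 9.90 TPM, and 10.7 and 6.36 in the second. Its intervals were 2.94 to 13.99 and 1.61 to 10.3 TPM, so the value in replicate 1 lies above its own interval. Adarb1-201, the coding form with neither stretch, read 0.07 and 0 TPM against 5.87 and 6.27. Its intervals in the first quantification, 0.00 to 10.2 and 0.43 to 6.60 TPM, include the values of the second. The 0 in replicate 2 lies under its own interval, so the level of this form is poorly determined.

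Retained-intron transcripts made up 22.4% and 21.3% of Adarb1 TPM, and 22.1% and 19.4% in the second quantification. The largest was Adarb1-209, at 4.36 and 3.8 TPM. Adarb1-213 read 2.73 and 3.50 TPM. Transcripts annotated as decay targets summed to 42.8% and 53.1%, and to 36.0% and 35.6% in the second. The remaining 6 Adarb1 transcripts each stayed under 5% of the gene. The highest share among them, 4.89%, was that of Adarb1-205, a decay target with a frame of 38 residues, which read 0 TPM in replicate 1 and 2.04 in replicate 2.

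**Figure D3:**
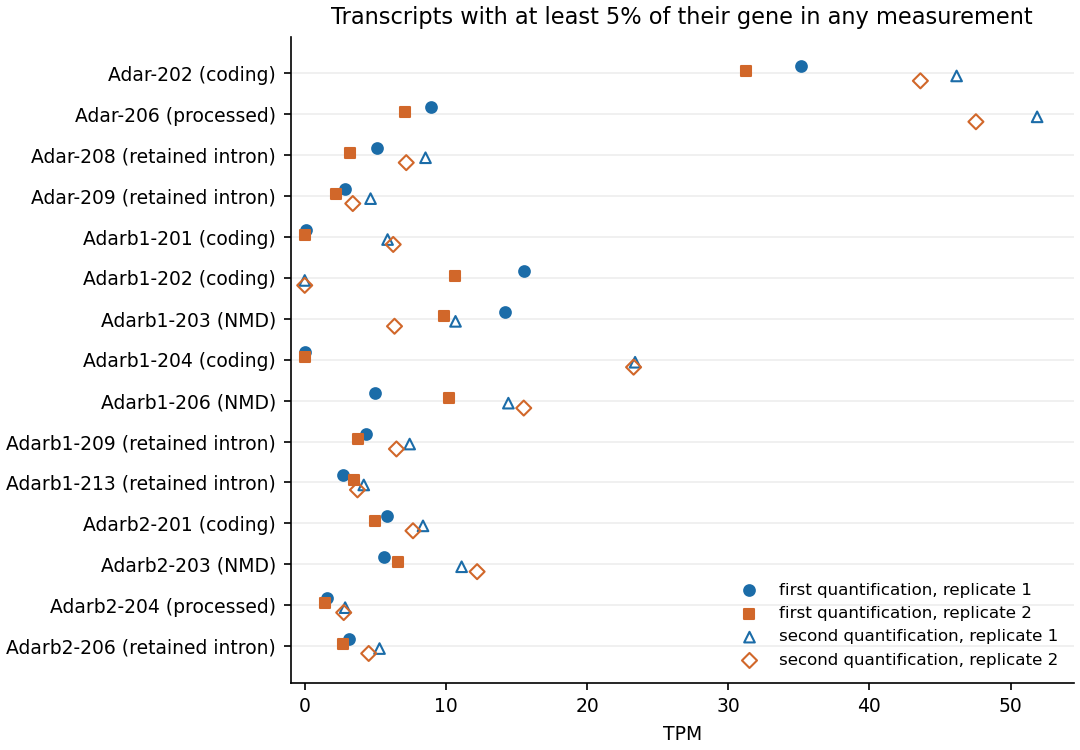
TPM (linear axis) of each ADAR transcript that reached at least 5% of its gene in any of 4 measurements. Filled symbols are the first quantification and open symbols the second, blue is replicate 1 and orange replicate 2, and NMD is nonsense-mediated decay. The quantifications lie far apart for Adar-206, Adarb1-202 and Adarb1-204, while the libraries lie close within each quantification for most transcripts.

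Adarb2 has 2 protein-coding transcripts, 1 decay target, 1 with a retained intron and 2 processed transcripts. Adarb2-201, which encodes 745 residues, read 5.85 and 5.0 TPM. Adarb2-203 has a frame of the same 745 residues, is annotated as a decay target, and read 5.62 and 6.58 TPM. Its stop codon lies 69 bases before 1 further exon junction, where Adarb2-201 ends in that exon. In replicate 1 Adarb2-201 was the higher of the pair and in replicate 2 Adarb2-203. The second quantification gave 8.38 and 7.67 TPM for Adarb2-201 and 11.1 and 12.2 for Adarb2-203. Both transcripts with the 745-residue frame held 70.8% and 72.2% of Adarb2 TPM, a mean of 71.5% ± 0.985 (SD, n = 2), and 67.6% and 70.5% in the second. Whatever the label of the 3′ end, most Adarb2 RNA was assigned to transcripts of the full-length frame.

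The other coding transcript, Adarb2-202 with 701 residues, read 0 and 0.31 TPM, and 1.19 and 1.01 in the second quantification. Adarb2-206, a single exon of 3887 bases at the 5′ end annotated as a retained intron, read 3.14 and 2.73 TPM, 19.4% and 17.0% of the gene. Adarb2-204, a processed transcript that shares the 5′ end, read 1.58 and 1.41 TPM. The sixth transcript, Adarb2-205, was listed at 0 TPM in every measurement. The gene spans 565.9 kb, against 127.5 kb for Adarb1 and 38.4 kb for Adar. Incompletely spliced RNA was not measured as such.

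**Figure D4:**
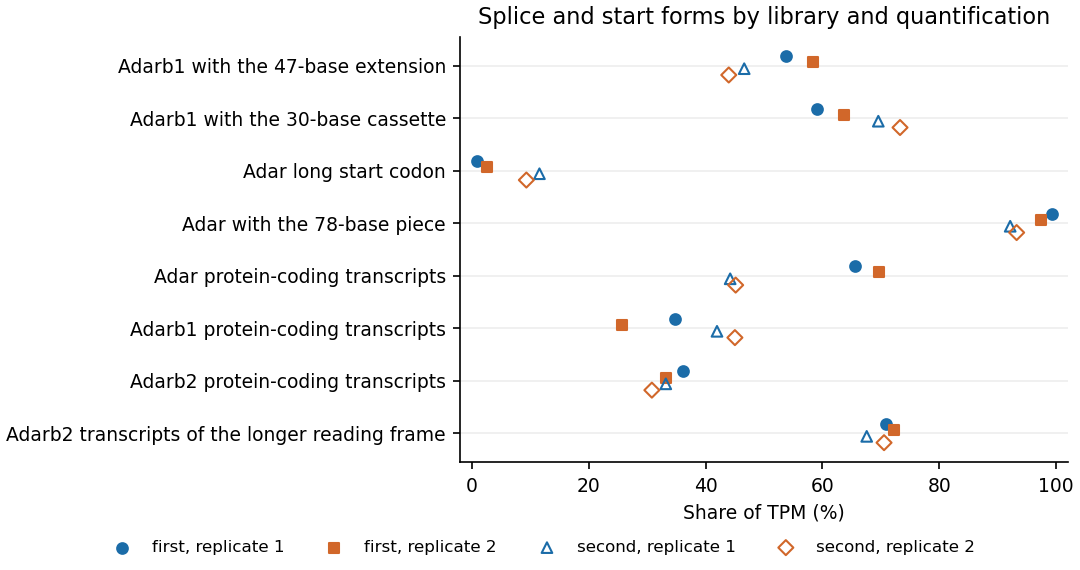
Share of TPM (percent, linear axis) of splice, start and coding forms of the ADAR genes, each out of the transcripts that cover the feature or, for protein-coding and reading-frame shares, out of the whole gene. Filled symbols are the first quantification and open symbols the second. The Adarb1 extension lies between 44.0% and 58.5%, the long Adar start stays at or under 11.5%, and the form of Adar with the 78-base piece stays at or above 92.2%.

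Less of the TPM of each ADAR gene carried the protein-coding label than in the median gene. By TPM, protein-coding transcripts were 67.7% ± 2.92 of Adar, 30.2% ± 6.51 of Adarb1 and 34.6% ± 2.13 of Adarb2 (SD, n = 2), against a median of 86.2% over genes. For Adarb1 and Adarb2 the share was under 50%, as for 10.9% of 11502 genes, and they stood at percentiles 3.90 and 4.98. Adar stood at percentile 23.8. In the second quantification the shares were 44.7%, 43.5% and 31.97%, at percentiles 10.5, 9.92 and 5.17. Adar-206, on few reads, held 40.6% and 41.6% of Adar TPM there. By expected count in the first quantification the protein-coding shares were 94.9% for Adar, 35.5% for Adarb1 and 48.2% for Adarb2. With protein-coding transcripts alone, Adar read 35.4 and 32.1 TPM, Adarb1 15.6 and 10.7, and Adarb2 5.85 and 5.31. The order of the members was the same on this scale and the ratio of Adar to Adarb1 was 2.57, a calculation added after the values were seen. For Adarb2 the label of protein-coding leaves out Adarb2-203 with its full-length frame.

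The most abundant transcript differed between the quantifications for 2 of the 3 genes, Adar and Adarb1. It did so for 24.7% of 11987 detected genes with several annotated transcripts. Between the libraries it differed for Adarb2 alone among the 3, as for 11.4% of those genes.

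Other genes of the RNA-editing pathway were listed by role. The lists were chosen with earlier results of these data known, so the counts detected describe the lists and test nothing about them. Of the listed substrates of editing, a choice from those known, 24 of 24 were detected, against 57.7% of all protein-coding genes. Their median was 40.2 TPM against 14.7 over all detected protein-coding genes. Gria2, whose transmembrane codon is the best known ADAR2 target, was the highest, at 290 and 263 TPM. Cyfip2, a regulator of actin that ADAR2 recodes, read 220 and 214 TPM. Son, a splicing factor, read 105 and 97.3 TPM. Among other neuronal substrates, the kainate receptor subunit Grik2 had a mean of 39.0 ± 2.86 TPM, the potassium channel Kcna1 47.8 ± 0.785, the GABA receptor subunit Gabra3 15.3 ± 1.17 and the serotonin receptor Htr2c 7.19 ± 0.042 (SD, n = 2). The lowest was the DNA glycosylase Neil1, a substrate of ADAR1, at 4.14 and 3.33 TPM. All 24 substrates lay within 2-fold between the libraries, with a median log2 ratio of -0.03 against -0.04 over all genes.

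Of 20 listed cofactors and transport factors 19 were matched and all 19 were detected, against 57.7% of all protein-coding genes. Their median was 28.1 TPM. Zfr, a zinc-finger protein that binds double-stranded RNA and modulates editing, was the highest, at 145 and 142 TPM. The importin Kpna1 read 56.5 and 60.5 TPM and the RNA helicase Dhx9 read 49.0 and 42.9. Regulators of ADAR2 protein were lower: Wwp2, a ubiquitin ligase that acts on ADAR2, had a mean of 14.8 ± 0.481 TPM, and Aimp2, which lowers ADAR2 protein, had 12.1 ± 0.495 (SD, n = 2). Kpna3, an importin that carries ADAR2, read 28.1 ± 0.672 TPM, and Xpo5, an exporter of structured RNA, 17.7 ± 0.247 (SD, n = 2). The ratio between libraries was largest for Cebpb, a transcription factor, at 10.5 and 15.5 TPM, which is under 2-fold.

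Genes that sense double-stranded RNA, among them those that ADAR1 holds back, had a median of 1.11 TPM, against 3.215 over all protein-coding genes. Of 14, 7 were detected, against 57.7% of all protein-coding genes. At 0.5 TPM or more in each library, where the share of all genes was not computed, there were 9. The highest were Tarbp2 at 14.8 and 15.3 TPM and Prkra at 7.86 and 6.44, both better known as partners of Dicer, and then the receptor Tlr3 at 3.08 and 3.77. The sensor MDA5, encoded by Ifih1, read 0.73 and 0.59 TPM. Its adaptor Mavs read 2.77 and 2.47. The kinase PKR, encoded by Eif2ak2, read 2.21 and 1.68. Zbp1, a sensor of Z-form nucleic acid, read 0 and 0.06 TPM on 0 and 1 counts. Adar RNA, summed over all its transcripts, thus exceeded that of each of these sensors in both libraries. The long-frame transcripts Adar-201 and Adar-203 alone summed to 0.27 and 0.84 TPM, under Mavs, Eif2ak2 and Tlr3 in both libraries. Against Ifih1 they were lower in replicate 1 and higher in replicate 2. In the second quantification they summed to 6.02 and 4.47 TPM. There Ifih1 had a mean of 1.11 TPM, Mavs 4.55, Eif2ak2 5.10 and Tlr3 7.45.

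Interferon-responsive genes had a median of 0.925 TPM. Of 14, 6 were detected, against the same 57.7%. With the level set at 0.5 TPM in each library, where the share of all genes was not computed, there were 9. Ifi27 was the highest at 39.6 and 38.3 TPM, followed by Stat2 at 14.2 and 10.7. Isg15 read 0.54 and 0.53 TPM and Ifit1 0.24 and 0.39, each on at most 23.2 expected counts. These values stand beside the low share of the interferon-inducible long Adar frame. Whether the 2 are related was not tested.

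The other deaminases were lower than the ADAR genes. Of 5 relatives by sequence, the tRNA deaminase genes Adat1, Adat2 and Adat3 were detected, with means of 2.73, 3.88 and 1.39 TPM. Adad1, a testis relative, had no counts, and a count of 0 allows up to 3 counts. Of 7 genes for C-to-U editing and related deaminases 1 was detected, Apobec3, an antiviral deaminase, at 2.23 and 2.09 TPM. Over all protein-coding genes 57.7% were detected. Apobec1, the enzyme that edits apolipoprotein B RNA, read 0.93 and 0.75 TPM, and Rbm47, its RNA-binding partner, 0.70 and 0.41. Another 3 of that list had no counts in either library. Each ADAR gene thus exceeded every gene of these deaminase lists in both libraries.

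**Figure D5:**
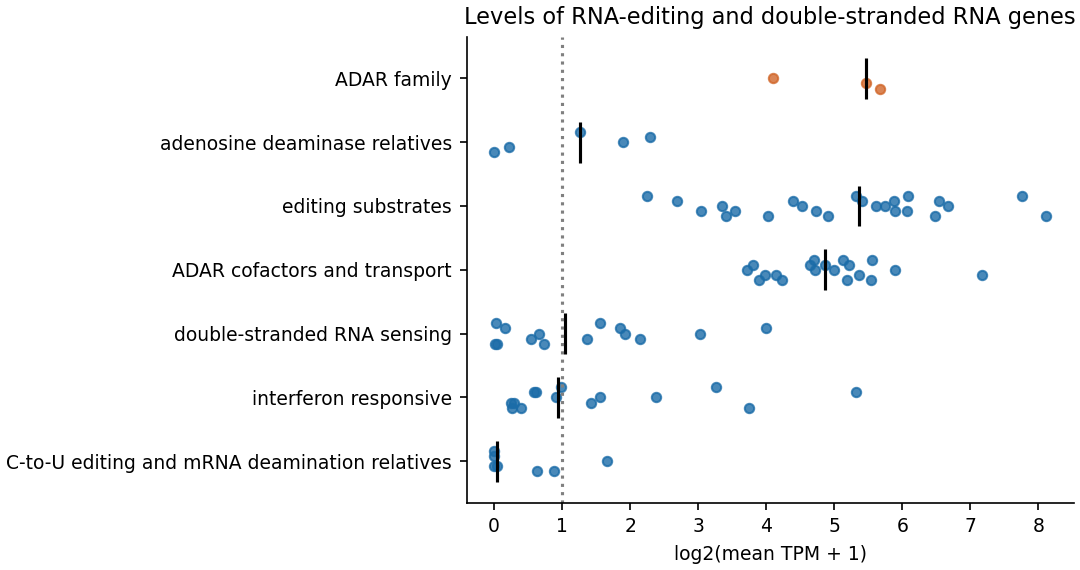
Mean TPM over the 2 libraries, as log2(mean TPM + 1), for the genes of each list. Points are genes, black bars are list medians, and the dotted line is the detection level of 1 TPM. Substrates and cofactors sit with the ADAR genes above the line, and most sensors, interferon-responsive genes and other deaminases sit near or under it.

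Because Adarb2 is used as an interneuron marker, markers of those cells were read beside it. All 10 markers of interneurons of the caudal ganglionic eminence were detected, with a median of 12.4 TPM, and their summed level was 198 TPM in replicate 1 and 190 in replicate 2. The highest were Cnr1 at 73.8 and 72.3 TPM, Kit at 35.6 and 31.3, and Lamp5 at 21.3 and 23.0, while Vip read 7.14 and 6.87. All 8 markers of interneurons of the medial ganglionic eminence were detected too, with Sst the highest at 161 and 168. The general interneuron gene Gad1 read 140 and 147 TPM. Adarb2, at 16.2 and 16.0 TPM, thus lay under Lamp5 and above Vip. The cells that hold its RNA were not resolved.

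Some genes overlap the ADAR genes. Adar shares its 3′ end with Chrnb2, a nicotinic receptor subunit on the opposite strand (chr3:89746195-89764632), which read 12.6 and 12.1 TPM. Within Adarb2 lie 5 small genes, the highest of which, Gm48261, read 1.97 and 1.52 TPM. No gene overlaps Adarb1. Whether the quantifications used the strand of the reads is not given in the sources used here, and their part in the ADAR values was not tested.

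The genes closest in level were found by the Euclidean distance of log2(TPM + 1) over 4 values, the 2 libraries in both quantifications, among 19843 protein-coding genes with a name other than a clone name. Nearest to Adar were Kif3a, a kinesin motor, at 0.115, Cnot7, a deadenylase, at 0.121, and Rbm25, a splicing factor, at 0.130. Nearest to Adarb1 were Rtn4rl1, a Nogo receptor homologue, at 0.012, Opa1, a mitochondrial fusion protein, at 0.036, and Taok1, a kinase, at 0.050. Nearest to Adarb2 were Tram1 at 0.045, Atp13a1 at 0.046 and Ric1 at 0.050. With 2 libraries of 1 group this likeness is one of level alone.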

How the data were processed

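Total RNA of 2 hippocampus libraries was quantified by the authors, who deposited a gene and 2 transcript quantifications for each, with mm10 and GENCODE M21 per the deposited text listings. Which programs were run is not given in the sources used here. Expected counts, per the file headers, are the deposited estimates of reads for each gene or transcript and can be fractional. TPM, per the file headers, is the deposited abundance, scaled to one total over all entries. Credibility bounds of TPM are the deposited ones, at a level that the sources used here do not give. CAST/EiJ reads were assigned to a C57BL/6J reference, and the effect of strain variants was not measured.

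Gene TPM of the second quantification is the sum of its transcripts. Shares were recomputed from TPM. Exons, frames and gene types came from GENCODE M21, and promoter windows from RefSeq (GRCm38.p6). Values are given per library and as mean ± SD, with no test, since there was 1 group. Genes were detected at 1 TPM or more in each library. Ratios between libraries used features with 50 or more expected counts in each and were called at 2-fold. TMM factors came from edgeR 4.0.16 under R 4.3.3, on expected counts rounded to whole numbers. Other values were computed with Python 3.11.15. The ratio step was tested on simulated data. Transcripts were described at a share of at least 5% in any of 4 measurements. Named genes were the 3 members, the 3 highest of each list, other list members by role, and the 3 nearest genes to each member. Some genes that this rule names are left out of the text. The members and lists were chosen with earlier results of these data known. Alternatives covered the second quantification, expected counts, the scaling, the pseudocount, filters on low values and leaving out each library.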

Additional observations from a re-analysis of the deposited data

How the results depend on the processing

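With 2 libraries of 1 group, the spread rests on 1 difference per value. No paired analysis was possible because there was 1 group. Leaving out 1 library leaves the value of the other, which is given above, and so cannot move a mean past that spread. Neither TMM-scaled counts nor a pseudocount of 1 moved a ratio between libraries by more than the SD over all genes. Of the 15 single transcripts described, 9 moved by more than 1 SD in the second quantification and 6 did not. The cause of the differences below was not tested.

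In the second quantification the mean levels were 120.98 TPM for Adar, 67.8 for Adarb1 and 28.5 for Adarb2. With TPM rescaled to nuclear protein-coding genes they were 120, 104 and 38.7. The log2 ratio of Adar to Adarb1, 0.21 as reported, was 0.84 in the second quantification and turned to -0.22 by expected count. On protein-coding transcripts, chosen after seeing the data, it was 1.36, and 0.88 in the second quantification. That of Adarb1 to Adarb2, 1.42 as reported, took the values 1.25, 1.66, 1.23 and 1.69 in the same order. The shares of the family were 55.7%, 31.2% and 13.1% in the second quantification. Genes 2-fold apart between libraries were 1.5% with a count of at least 10 and 10.8% with no filter above 0.

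For the second quantification, Adarb1 RNA with the extension was 45.3% and with the cassette 71.4%. The long Adar start was 10.4%, the downstream Adar first exon 8.42% (1.30% as reported) and the 78-base piece 92.7%. Protein-coding shares were 44.7% for Adar, 43.5% for Adarb1 and 31.97% for Adarb2, and the longer Adarb2 frame held 69.1%. By expected count the protein-coding share was 94.9% for Adar and 48.2% for Adarb2, and the longer Adarb2 frame held 81.5%. With the deposited posterior mean TPM, chosen after seeing the data, the long Adar start was 3.10%, the downstream first exon 3.21% and the longer Adarb2 frame 69.1%.

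List medians in the second quantification were 1.02 TPM for deaminase relatives, 68.6 for substrates, 46.0 for cofactors, 2.83 for sensors, 1.90 for interferon-responsive genes and 0.056 for C-to-U genes. At a detection level of 5 TPM, 0 relatives, 2 sensors, 3 interferon-responsive genes and 0 C-to-U genes were detected, and 2 C-to-U genes at 0.5 TPM. The share of all protein-coding genes at these levels was not computed, so these counts have no comparison.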
